A study of Mus musculus with 6 samples.

Results

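The transcripts of 9 genes that mark megakaryocytes and platelets were followed in male mouse embryos with and without functional Smchd1, a protein related to the structural maintenance of chromosomes family. The genes were *Pf4*, *Ppbp*, *Itga2b*, *Itgb3*, *Gp1ba*, *Gp1bb*, *Gp9*, *Treml1* and *Vwf*, and each was found by its symbol at 1 of the 24207 loci of the deposited expression table. They were picked with the difference between the genotypes already known, from the same pair of expression values per locus that is described here. The genotype differences below are therefore a description of these genes and no test of them was made.

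RNA was sequenced from 6 embryos dissected at embryonic day 9.5 (E9.5), 3 *Smchd1*+/+ and 3 *Smchd1*MommeD1/MommeD1, all labelled male. *MommeD1* is a loss-of-function allele from a chemical (ENU) mutagenesis screen, and the study's methods give matings between heterozygotes as the origin of its embryos. The sample labels name C57Bl6/J x FVB/n as the background strain, whereas the study's text gives its male E9.5 RNA-seq embryos another background, reached by backcrossing, so the strain is uncertain. The yolk sac of each embryo was used to determine its genotype. The values are FPKM, sequenced fragments corrected for the length of the transcript and the size of the library, 1 for each genotype and locus, pooled by the authors over the 3 embryos. There was no value for a single embryo, hence no spread between embryos, no standard error and no p-value is given, and no difference below was compared with the variation between embryos.

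*Smchd1* itself, which lies at chr17:71344415-71475343 of mm10, was at 2.12 FPKM in *Smchd1*MommeD1/MommeD1 and 34.0 FPKM in *Smchd1*+/+ embryos, the order that the genotype labels call for. Over the 12463 loci averaging at least 1 FPKM the median log2 ratio of mutant over wildtype was -0.01. This and every other log2 ratio below was taken after adding 0.1 FPKM to both values, which pulls the ratios of weakly expressed genes towards 0. Where a plain FPKM ratio is given, nothing was added.

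Megakaryocytes are the large blood cells that shed platelets, the anucleate fragments that seal damaged vessels. In the mouse embryo the first of them arise in the yolk sac, from progenitors that they share with primitive red cells, and reach the embryo with the circulation. Their surface carries receptors for von Willebrand factor and fibrinogen, and their alpha granules store chemokines and adhesive proteins that are released on activation. GATA and ETS family transcription factors are the best known regulators of the genes of this lineage.

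Promoter sequences are shown for 4 members, chosen for their ratios or their motif matches: *Pf4*, *Ppbp* and *Gp9*, which had the highest FPKM ratios, and *Gp1ba*, which had the most GATA matches. Each is the 250 bases before the RefSeq transcription start on GRCm38.p6 (the mm10 build), written 5′ to 3′ on the strand of the gene. Capitals mark GATA motifs (the letters AGATAA and also AGATAG, together with TGATAA and also TGATAG) and the ETS core GGAAG, searched on both strands with overlaps allowed, so that a match on the other strand reads as its reverse complement. The windows are chr5:90772185-90772434 (plus strand) for *Pf4*, chr5:90768268-90768517 (plus strand) for *Ppbp*, chr6:87777820-87778069 (plus strand) for *Gp9* and chr11:70638872-70639121 (plus strand) for *Gp1ba*.
Pf4: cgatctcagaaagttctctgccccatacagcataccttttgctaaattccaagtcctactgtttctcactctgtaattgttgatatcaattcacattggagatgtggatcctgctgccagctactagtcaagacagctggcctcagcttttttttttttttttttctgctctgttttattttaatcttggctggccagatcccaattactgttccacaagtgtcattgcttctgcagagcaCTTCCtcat
Ppbp: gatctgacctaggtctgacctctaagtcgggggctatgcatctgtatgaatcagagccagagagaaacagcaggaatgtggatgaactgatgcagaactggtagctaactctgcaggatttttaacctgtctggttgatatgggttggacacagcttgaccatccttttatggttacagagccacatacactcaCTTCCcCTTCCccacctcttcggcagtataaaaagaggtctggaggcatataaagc
Gp9: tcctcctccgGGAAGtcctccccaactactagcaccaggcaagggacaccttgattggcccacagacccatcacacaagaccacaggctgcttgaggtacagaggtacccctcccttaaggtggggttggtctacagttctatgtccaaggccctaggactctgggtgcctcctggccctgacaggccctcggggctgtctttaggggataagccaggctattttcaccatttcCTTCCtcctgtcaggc
Gp1ba: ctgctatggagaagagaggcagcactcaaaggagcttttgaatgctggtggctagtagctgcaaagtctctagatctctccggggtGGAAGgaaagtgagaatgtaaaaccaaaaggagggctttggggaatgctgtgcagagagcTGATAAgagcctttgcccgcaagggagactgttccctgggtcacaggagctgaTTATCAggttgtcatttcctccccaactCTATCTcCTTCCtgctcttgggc

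The *Pf4* window held a single ETS match, 9 bases before the start, and no GATA match. An AGATAA lay at base 37 of the *Pf4* transcript, after the start and outside the window. *Ppbp*, the gene next to *Pf4*, held ETS matches at 56 and 50 bases before its start. *Gp9* held ETS matches at 240 and 16 bases. *Gp1ba* held GATA matches at 104, 51 and 23 bases and ETS matches at 164 and 16 bases before its start. Windows were found for 7 of the 9 members, all but *Itgb3* and *Vwf*. All 7 held an ETS match, which 64.1% of all 32851 RefSeq windows also did, and 2 of the 7 (*Gp1ba* and *Gp1bb*) held a GATA match, against 26.5% of all windows. A match is only the presence of these letters, and their absence says nothing about binding elsewhere.

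All 9 members had more FPKM in *Smchd1*MommeD1/MommeD1 than in *Smchd1*+/+ embryos, where 49.9% of the 14761 loci averaging at least 0.3 FPKM, a level that all 9 passed, were higher in the mutants by any amount. *Ppbp*, *Gp1ba*, *Gp9* and *Treml1* were under 0.3 FPKM in wildtype embryos, so they passed that level only through their mutant values. With 0.1 FPKM added, 5 members were at least 2-fold higher (*Pf4*, *Ppbp*, *Itgb3*, *Gp9* and *Treml1*), a size that 1.9% of these 14761 loci reached. The members were chosen on this contrast, so nothing is read from these shares. Their median log2 ratio was 1.03, and that of the 6 averaging at least 1 FPKM was 1.01, of which 3 were at least 2-fold higher beside 0.979% of all 12463 loci at that level. Of these 6, *Ppbp* and *Itga2b* reached that average only through their mutant values, while 4 were at or above 1 FPKM in both genotypes, 2 of them (*Pf4* and *Itgb3*) at least 2-fold higher. In the other direction, 0.779% of the 14761 and 0.514% of the 12463 loci were at least 2-fold lower. Summed over the 9 loci, the values came to 35.0 FPKM in mutant embryos and 14.5 FPKM in wildtype embryos. The locus that *Gp1bb* shares with *Sept5* gave 13.4 FPKM of the mutant and 8.14 FPKM of the wildtype sum, and its *Gp1bb* part is unknown. In bulk embryo RNA, more cells of a type and more RNA per cell cannot be told apart.

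**Figure D1:**
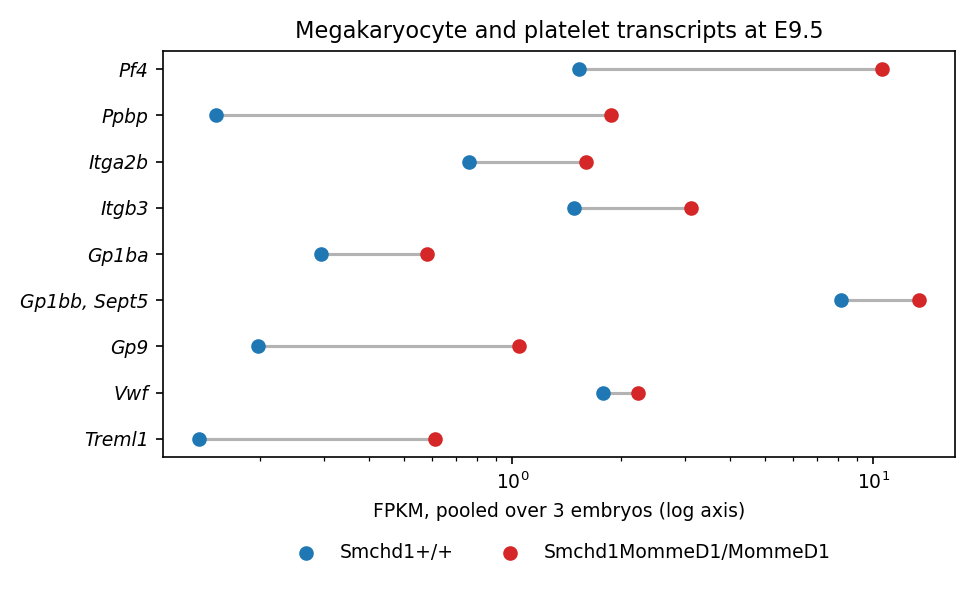
Pooled FPKM (log axis) of the 9 members in *Smchd1*+/+ embryos (blue) and *Smchd1*MommeD1/MommeD1 embryos (red), 1 value per genotype with no error available, joined by a grey line for each gene. Every red point lies to the right of its blue point, with the longest gap at *Ppbp* (1.87 against 0.151 FPKM) and the shortest at *Vwf* (2.22 against 1.78 FPKM).

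The granule chemokines differed most. *Pf4* (platelet factor 4, CXCL4), a chemokine of platelet alpha granules at chr5:90772435-90773383, was at 10.6 FPKM in mutant embryos and 1.53 FPKM in wildtype embryos. This is an FPKM ratio of 6.93 and a log2 ratio of 2.71, which ranked 10 among the 14761 loci. By level, *Pf4* ranked 3 among the members in wildtype embryos and 2 in mutant embryos. *Ppbp* (pro-platelet basic protein, CXCL7), which is cleaved into neutrophil-attracting peptides, lies beside it at chr5:90768518-90770060. It was at 1.87 FPKM in mutant embryos and 0.151 FPKM in wildtype embryos, an FPKM ratio of 12.4 and a log2 ratio of 2.97. Both genes have 3 exons, and 2374 bases separate them. *Pf4* was the more abundant of the pair in both genotypes, by 5.65-fold in mutant and 10.1-fold in wildtype embryos. The wildtype level of *Ppbp* is low, so its ratio is the less certain of the pair and moved most with the amount added, from a log2 ratio of 1.32 with 1 FPKM to 3.63 with none.

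The other chemokine genes of the same cluster were close to 0 in both genotypes. *Cxcl5*, on the far side of *Ppbp*, was at 0.0712 FPKM in mutant embryos and 0.0844 FPKM in wildtype embryos. *Cxcl1* was at 0.0204 and 0.0456 FPKM, *Cxcl15* at 0.0453 and 0.0162 FPKM, *Cxcl3* at 0.0189 FPKM and listed at 0, and *Cxcl2* was listed at 0 in both. These genes, named after their values were seen, had no level at which a genotype difference could be read. *Pf4* and *Ppbp* were thus the 2 chemokines of the cluster with values above 0.1 FPKM.

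The 2 chains of the fibrinogen receptor, integrin αIIbβ3, had nearly the same ratio. *Itga2b* (CD41, the αIIb chain), one of the earliest markers of embryonic blood cells, lies at chr11:102453297-102469883 with 30 exons. It was at 1.60 FPKM in mutant embryos and 0.759 FPKM in wildtype embryos, an FPKM ratio of 2.11. *Itgb3* (CD61, the β3 chain), which also pairs with αV in other cell types, lies on the same chromosome at chr11:104608000-104670471 with 15 exons. It was at 3.12 FPKM in mutant embryos and 1.48 FPKM in wildtype embryos, also an FPKM ratio of 2.11. The β3 chain stood 1.95-fold above the αIIb chain in both genotypes. With 0.1 FPKM added, *Itgb3* lay just above 2-fold (log2 ratio 1.03) and *Itga2b* just below it (0.99), a split made by the constant alone, since both were above 2-fold without it.

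The genes of the GPIb-IX complex, the platelet receptor for von Willebrand factor, differed from each other. *Gp9*, the small subunit GPIX, at chr6:87778136-87779762, was at 1.05 FPKM in mutant embryos and 0.198 FPKM in wildtype embryos, an FPKM ratio of 5.28 and a log2 ratio of 1.94. *Gp1ba*, whose product GPIbα binds the ligand, at chr11:70639122-70642055, was at 0.581 and 0.296 FPKM, an FPKM ratio of 1.96 and a log2 ratio of 0.78. *Gp9* was therefore below *Gp1ba* in wildtype embryos, at 0.670 of its level, and 1.80-fold above it in mutant embryos. The wildtype levels of both are low, so this difference is uncertain. With 1 FPKM added, the log2 ratio was 0.77 for *Gp9* and 0.29 for *Gp1ba*. The remaining subunit gene, *Gp1bb*, shares its locus at chr16:18620319-18629938 with *Sept5*, a septin gene active in neurons, and the table gives 1 value for both. That joint value was 13.4 FPKM in mutant embryos and 8.14 FPKM in wildtype embryos, an FPKM ratio of 1.64 and a log2 ratio of 0.71. It was the highest value of the 9 in both genotypes, and how much of it came from *Gp1bb* cannot be read from the table.

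*Vwf*, the von Willebrand factor that GPIbα binds, is made by endothelial cells as well as megakaryocytes and had the lowest ratio. Its locus at chr6:125552963-125686677, with 52 exons, was at 2.22 FPKM in mutant embryos and 1.78 FPKM in wildtype embryos, an FPKM ratio of 1.25 and a log2 ratio of 0.30. A log2 ratio at least that high was seen at 13.1% of the 14761 loci, against 0.0677% for *Pf4*. By level, *Vwf* ranked 2 among the 9 members in wildtype embryos and 4 in mutant embryos. *Pf4* went from 0.856 of the *Vwf* level in wildtype embryos to 4.75-fold above it in mutant embryos.

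Because endothelial cells also make *Vwf*, its values were set beside those of endothelial genes. Of 22 endothelial genes, 11 were higher and 11 lower in mutant embryos, none by 2-fold, with a median log2 ratio of 0.00. All 22 averaged at least 1 FPKM, where 48.2% of all loci were higher, 0.979% at least 2-fold higher and 0.514% at least 2-fold lower, so these counts were near the shares of all loci. The summed values of the 22 genes were 242 FPKM in mutant embryos and 240 FPKM in wildtype embryos. The most abundant were *Ramp2*, a receptor partner for adrenomedullin, at 31.3 and 31.1 FPKM, and *Plvap*, a protein of endothelial diaphragms, at 23.4 and 21.1 FPKM. The largest difference was in *Robo4*, an endothelial guidance receptor, at 2.22 and 1.15 FPKM (log2 ratio 0.90). The part of endothelial RNA in the *Vwf* values was not tested.

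*Treml1* (TLT-1), a receptor stored in platelet alpha granules and moved to the surface on activation, lies at chr17:48359916-48367146 with 6 exons. It was at 0.612 FPKM in mutant embryos and 0.136 FPKM in wildtype embryos, an FPKM ratio of 4.51 and a log2 ratio of 1.60. It had the lowest wildtype level of the 9. *Treml1* lies on the chromosome that carries *Smchd1*, whereas the other 8 members lie on other chromosomes.

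Weak expression widens the spread of ratios, so each member was also set beside loci of like level. Among the 2298 loci with a mean of 0.3 to 1 FPKM, where *Gp1ba*, *Gp9* and *Treml1* lie, 6.92% were at least 2-fold higher in mutant embryos and 2.22% at least 2-fold lower. At 1 to 3 FPKM, where *Ppbp*, *Itga2b*, *Itgb3* and *Vwf* lie, these shares were 3.18% and 0.985%. At 3 to 15 FPKM, the range of *Pf4* and the joint *Gp1bb* and *Sept5* locus, they were 0.658% and 0.399%. With 0.1 FPKM added, *Pf4*, *Ppbp*, *Gp9* and *Treml1* were at least 3-fold higher, as were 1.65%, 0.761% and 0.239% of the loci in these 3 ranges, from the lowest level to the highest. *Gp1ba*, *Gp9* and *Treml1* entered the lowest range, and *Ppbp* and *Itga2b* the middle one, only through their mutant values.

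**Figure D2:**
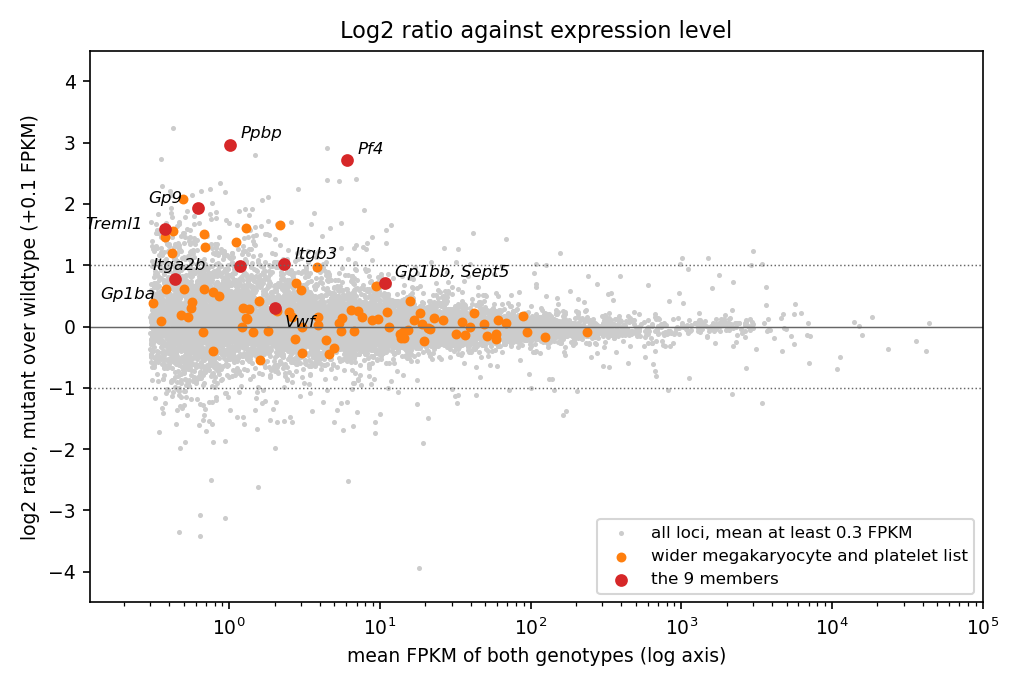
Log2 ratio of *Smchd1*MommeD1/MommeD1 over *Smchd1*+/+ (0.1 FPKM added) against the mean FPKM of both genotypes (log axis), for the 14761 loci averaging at least 0.3 FPKM (grey), those of the wider megakaryocyte and platelet list among them (orange) and the 9 members (red). Dotted lines mark 2-fold, and 10 loci beyond a log2 ratio of 4.5 in either direction lie outside the plot. *Ppbp* (2.97) and *Pf4* (2.71) stand near the top edge of the grey points at their levels, and *Vwf* (0.30) lies within them.

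Loci beside the members were read in the same way. Among the 2 nearest loci on each side of each member, leaving out members, there were 32 loci, of which 19 had a mean of at least 1 FPKM. None of these 19 was 2-fold higher or lower, at a level where 0.979% of all loci were 2-fold higher and 0.514% lower, and their log2 ratios ran from -0.33 to 0.67 with a median of -0.01. The highest was *Ntf3*, a neurotrophin gene and the second locus after *Vwf*, at 2.52 FPKM in mutant embryos and 1.55 FPKM in wildtype embryos. Under 1 FPKM, *Ccdc48*, the locus before *Gp9*, was at 0.529 and 0.227 FPKM (0.94).

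A wider list of 109 further megakaryocyte and platelet genes was found at 104 loci. Of these, 72 were higher and 32 lower in mutant embryos, 14 were at least 2-fold higher and none 2-fold lower, with a median log2 ratio of 0.16. Of all 24207 loci, which include those listed at 0 in both genotypes, 41.3% were higher, 1.59% at least 2-fold higher and 0.677% at least 2-fold lower. Many genes of the wider list are also used by other cells, and its counts differed by expression level. At an average of at least 1 FPKM, 39 of 67 loci were higher and 28 lower, 3 were at least 2-fold higher, and the median was 0.06. Of all loci at that level, 48.2% were higher and 0.979% at least 2-fold higher. Under 1 FPKM, 33 of 37 were higher and 11 were at least 2-fold higher, with a median of 0.56. The authors' program had left 20 of these 37 untested for low coverage, and among all 7089 loci with a mean above 0 and under 1 FPKM, 56.4% were higher by any amount, 3.71% were at least 2-fold higher and 1.41% at least 2-fold lower. Loci too weak to reach 2-fold with 0.1 FPKM added lower both 2-fold shares, which at 0.3 to 1 FPKM were 6.92% and 2.22%.

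The 3 genes past 2-fold that averaged at least 1 FPKM act in platelet shape and activation. All 3 were under 1 FPKM in wildtype embryos, so they reached that average only through their mutant values. *Tubb1*, the β-tubulin of the platelet marginal band, was at 3.34 FPKM in mutant embryos and 0.996 FPKM in wildtype embryos (log2 ratio 1.65). *Plek* (pleckstrin), the main protein kinase C substrate of platelets, was at 1.99 and 0.584 FPKM (1.61). *Fermt3* (kindlin-3), which activates integrins in blood cells, was at 1.66 and 0.573 FPKM (1.38). All 3 are blood genes, and *Plek* and *Fermt3* are also expressed in leukocytes.

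The 11 weaker loci past 2-fold, named here after their values were seen, included *Fcer1g*, *Gp5*, *F2rl2*, *Srgn*, *Ptgs1*, *Alox12*, *Rgs18*, *Btk*, *Tbxas1* and *Fyb*. *Gp5*, a glycoprotein that associates with GPIb-IX, was at 0.680 FPKM in mutant embryos and 0.165 FPKM in wildtype embryos (log2 ratio 1.56). *Gp6*, the collagen receptor, was at 0.159 and 0.0299 FPKM, with a log2 ratio of 0.99. Its signalling partner *Fcer1g*, shared with mast cells and macrophages, was at 0.863 and 0.126 FPKM (2.09), the highest log2 ratio of the wider list.

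Of the 17 transcription factors of the lineage, 13 were higher and 4 lower, none reached 2-fold, and their median log2 ratio was 0.15. At an average of at least 1 FPKM, 12 of 16 were higher, where 48.2% of all loci were higher and 0.979% at least 2-fold higher. *Gata1*, required for megakaryocyte and red cell maturation, was the nearest to 2-fold, at 5.10 FPKM in mutant embryos and 2.56 FPKM in wildtype embryos (log2 ratio 0.97). *Nfe2*, required for platelet release, was at 3.63 and 2.36 FPKM (0.60). *Fli1*, an ETS factor also used by endothelium, was at 8.03 and 7.19 FPKM (0.16), and *Runx1* was at 0.368 and 0.259 FPKM (0.38). The most abundant, the adaptor *Ldb1*, was at 63.2 and 58.4 FPKM (0.12). The 4 lower ones were *Mef2c* (-0.34), *Lmo2* (-0.18), *Mafg* (-0.13, at a locus shared with *Sirt7*) and *Etv6* (-0.06). Apart from *Ldb1*, these factors were picked out after their values were seen.

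The other roles of the wider list had medians between -0.0031 and 0.29. Surface receptors (24 loci) had a median of 0.25 with 4 past 2-fold, granule and secreted proteins (20 loci) 0.20 with 1, cytoskeletal genes (16 loci) -0.0031 with 2, and signalling genes and enzymes (27 loci) 0.29 with 7. Loci under 1 FPKM carried the higher of these medians. At 1 FPKM or more the median was 0.03 with none past 2-fold for 10 surface receptor loci, 0.17 with none for 13 granule and secreted, -0.06 with 2 for 14 cytoskeletal, and -0.0051 with 1 for 14 signalling loci. Of all loci at that level 0.979% were at least 2-fold higher, and 3.71% of those above 0 and under 1 FPKM. The most abundant gene of each role is widely expressed and differed little. The thrombin receptor *F2r* was at 70.4 FPKM in mutant embryos and 67.4 FPKM in wildtype embryos, and the matrix protein *Sparc* at 94.2 and 84.0 FPKM. Tropomyosin *Tpm4* was at 230 and 244 FPKM, and the small GTPase *Rap1b* at 92.0 and 98.1 FPKM.

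**Figure D3:**
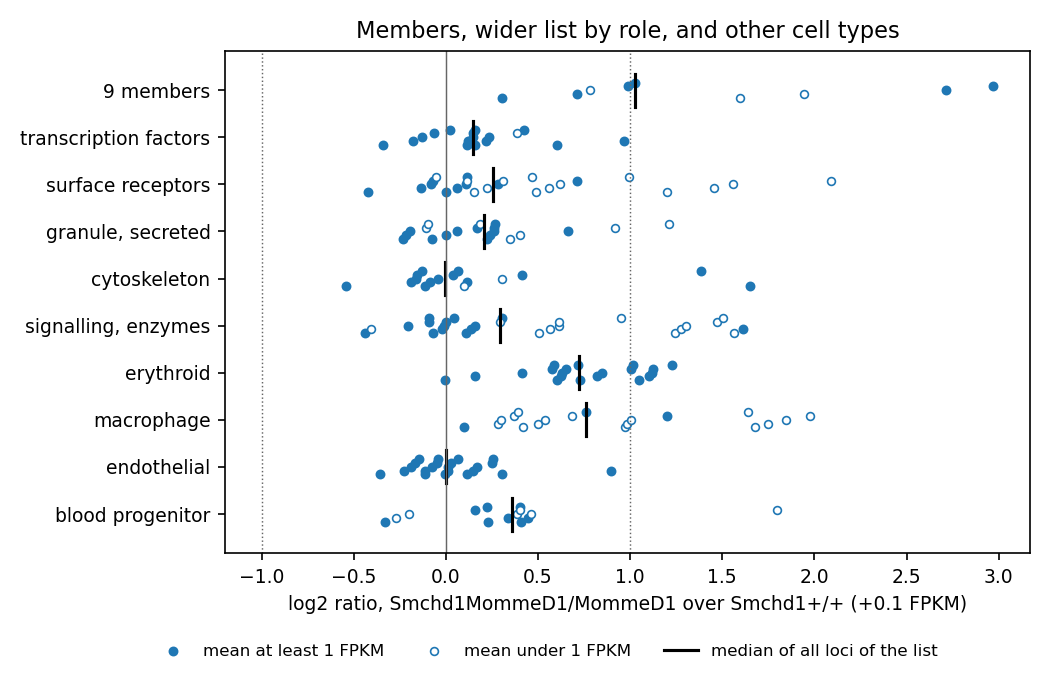
Log2 ratio of *Smchd1*MommeD1/MommeD1 over *Smchd1*+/+ (0.1 FPKM added) for each locus of the 9 members, the wider list by role and 4 other cell types, with filled points for an average of at least 1 FPKM, open points below that and a black bar at the median. The medians are 1.03 for the members, 0.72 for erythroid, 0.76 for macrophage, 0.36 for blood progenitor and 0.00 for endothelial genes.

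Erythroid genes were also higher. Of 20 erythroid loci, 19 were higher in mutant embryos, 7 by at least 2-fold, with a median log2 ratio of 0.72. All 20 averaged at least 1 FPKM, where 48.2% of all loci were higher and 0.979% at least 2-fold higher. The embryonic globins were the most abundant, with *Hba-x* at 4602 FPKM in mutant embryos and 2274 FPKM in wildtype embryos (1.02) and *Hbb-y* at 4191 and 1787 FPKM (1.23). With 0.1 FPKM added, *Pf4*, *Ppbp*, *Gp9* and *Treml1* had higher log2 ratios than all 20 erythroid loci. *Itgb3* stood above 15 of the 20, *Itga2b* above 13, *Gp1ba* above 11, the *Gp1bb* and *Sept5* locus above 9 and *Vwf* above 2. The members were chosen on this contrast, so nothing is read from this order, which also depended on the added constant. With 1 FPKM added, *Gp9* was at 0.77 and *Treml1* at 0.51, where the erythroid median was 0.65. The part of blood content as a whole in the member values was not tested.

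Macrophage genes, which share *Plek*, *Fermt3* and *Fcer1g* with platelets, were higher at all 19 loci, 7 of them by at least 2-fold, with a median log2 ratio of 0.76. Their levels were low, with 16 of 19 under 1 FPKM, 14 of them untested by the authors for low coverage, and sums of 13.6 FPKM in mutant embryos and 6.20 FPKM in wildtype embryos. All 16 were higher and 6 at least 2-fold higher, beside 56.4% and 3.71% of all loci above 0 and under 1 FPKM. Loci too weak to reach 2-fold with 0.1 FPKM added lower the 2-fold share, and at 0.3 to 1 FPKM it was 6.92%. The 3 others were all higher and 1 at least 2-fold higher, beside 48.2% and 0.979% of all loci at 1 FPKM or more. *Coro1a*, a leukocyte actin regulator, was at 5.36 and 2.28 FPKM (1.20) and *Laptm5*, a lysosomal protein of blood cells, at 2.95 and 1.70 FPKM (0.76). The defining receptor *Csf1r* was at 0.385 and 0.145 FPKM, and *Ptprc* (CD45) at 0.0964 FPKM in mutant embryos and listed at 0 in wildtype embryos. Their part in the result was not tested.

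Of 14 blood progenitor loci, 11 were higher and 3 lower, with a median log2 ratio of 0.36. At an average of at least 1 FPKM, 7 of 8 were higher and none 2-fold higher, beside 48.2% and 0.979% of all loci. Under 1 FPKM, 4 of 6 were higher and 1 at least 2-fold higher, beside 56.4% and 3.71% of all loci above 0 and under 1 FPKM. *Cd34*, also an endothelial gene, was at 29.7 FPKM in mutant embryos and 23.5 FPKM in wildtype embryos (0.34). *Kit*, the stem cell factor receptor, was lower in mutant embryos, at 7.34 against 9.25 FPKM (-0.33). *Ikzf1*, a lymphoid and myeloid factor, was at 1.80 and 1.29 FPKM (0.45). The locus past 2-fold was *Mpo*, the granule enzyme of myeloid cells, at 0.842 and 0.171 FPKM (1.79). At its level, a mean of 0.3 to 1 FPKM, 6.92% of all loci were at least 2-fold higher. Each member other than *Vwf* had a log2 ratio above the progenitor median, but the members were chosen on this contrast, so nothing is read from it.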

How the data were processed

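Per the labels and the study's methods, RNA of 3 male E9.5 embryos per genotype was made into nondirectional libraries, and single-end reads were mapped to mm10. The submitters' processing notes name TopHat2 2.0.6, Bowtie2 2.0.2, Cufflinks 2.0.2 and Cuffdiff 2.0.2. The authors deposited FPKM values, 1 per genotype and locus, pooled over embryos, and a status word of other kind for each locus (14163 tested, 9909 not tested, 134 failed, 1 with too many reads). The authors' fold changes, test statistics, p-values, q-values and significance calls in the same table were not used. The table names its conditions only by a letter each, and the genotype of each was taken from the same table in the study's supplement.

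Depth is unknown. FPKM values of genes with 1 transcript were searched for steps of whole reads (length less 200 bases), and 74.0% of 809 mutant and 44.2% of 853 wildtype values lay within 0.2 of a whole number, where an even spread gives 40%. No read counts or counting intervals were therefore derived.

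Log2 ratios of mutant over wildtype used log2(FPKM + 0.1). Lists were summarised by counts and medians, over all loci or those averaging 1 FPKM or more. Locus starts are counted from 1, since table and RefSeq then gave the same start at 8974 of 20268 loci, against 572 otherwise. Exon numbers are from GENCODE M21 and promoters from RefSeq. Of 197 listed symbols, 185 were in the table, and *Nfe2*, *Runx1* and *Esam* stood both in the wider list and in that of another cell type.

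The members and lists were chosen with earlier results of these data known. Named genes were the members, *Smchd1*, loci of the wider list past 2-fold at 1 FPKM or more, the most abundant locus of each role, and, for other cell types, the 2 most abundant loci and the one with the largest log2 ratio at that level. Neighbours past 2-fold at that level would have been named too. Other named genes (the weaker loci of the wider list, *Gp6*, lineage transcription factors, other chemokines, *Ntf3*, *Ccdc48*, *Csf1r*, *Ptprc* and *Mpo*) were chosen after their values were seen. Alternatives were other added constants, scalings, level filters and fold thresholds, and the members without *Vwf* or without *Gp1bb*. The values of 1 gene of the wider list are not reported here. The log2 ratio step alone was checked, by putting known differences without noise into loci averaging at least 5 FPKM. That check covers its arithmetic only, and not the lists, medians, neighbours or promoters. Python 3.11.15, numpy 2.4.6, pandas 2.3.3 and matplotlib 3.10.9 were used.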

Additional observations from a re-analysis of the deposited data

How the results depend on the processing

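Each of the 45 log2 ratios of members under other added constants or scalings stayed above 0. Those that moved by more than 1.5-fold were *Ppbp* (1.32), *Gp9* (0.77) and *Treml1* (0.51) with 1 FPKM added, and *Ppbp* (3.63) with none, an alternative chosen after seeing the data. *Vwf* ranged from 0.21 to 0.32. Rescaling to equal total FPKM over named loci of 200 bases or more lowered log2 ratios by about 0.02.

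The median of the members ran from 0.69 to 1.71, the latter at a mean of at least 5 FPKM, where few members are left. Medians ran from 0.04 to 0.16 for the wider list, 0.65 to 1.01 for erythroid, 0.548 to 1.003 for macrophage, 0.22 to 0.36 for progenitor and -0.01 to 0.01 for endothelial genes.

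At 2-fold and an average of at least 1 FPKM, 3 members and 3 loci of the wider list were higher, beside 0.979% of all loci higher and 0.514% lower. With 1 FPKM added, 2 members and 1 locus of the wider list were higher, with 0.433% of all loci higher and 0.329% lower. With 0.01 FPKM or none added, 4 members were higher. Without a filter, the counts were 5 members, 14 loci and 1.59%. At 5 FPKM they were 1, 0 and 0.415%. At 0.3 FPKM, chosen after seeing the data, they were 5, 9 and 1.90%, with 0.779% lower. At 1.5-fold they were 5, 7 and 3.51%, with 1.47% lower. At 3-fold, 2 members and 2 loci of the wider list were higher, beside 0.257% of all loci higher and 0.128% lower.

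No paired analysis was possible because the table holds 1 pooled value per genotype. Leaving out single embryos was not possible for the same reason. The unknown spread between embryos limits every ratio, and low wildtype values limit those of *Ppbp*, *Gp9* and *Treml1* most.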
